A study of Mus musculus with 5 samples.

Results

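Cells read messenger RNA into protein with a shared set of factors and enzymes, and 76 genes of that set are described here in macrophages given lipopolysaccharide (LPS), a component of the outer membrane of Gram-negative bacteria. They are the genes whose symbols begin with Eif1 to Eif6 or Eef, without the kinase Eif2ak2, together with the cytosolic and mitochondrial aminoacyl-tRNA synthetases. A gene was taken when at least 1 probe named it alone and had a value on all 5 arrays, which left 76 genes with 144 probes among 8692 genes measured. Of these, 50 are translation factors and 26 are synthetases. The genes Eif2a, Eif3h, Eif3k and Vars had probes but none with a value on every array, and Eif1, Eif2s1, Eif4g1 and Gars were not analysed here. Of the 76 genes, 40 had more than 1 probe and 36 had 1.

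Translation starts when initiation factors bring the small ribosomal subunit and the initiator tRNA to the capped end of an mRNA. Elongation factors then deliver charged tRNAs and move the ribosome along, and aminoacyl-tRNA synthetases charge each tRNA with its amino acid. In macrophages, activation by LPS is known to be accompanied by heavy protein synthesis, much of it controlled through the phosphorylation of these factors, which arrays of RNA do not measure.

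The macrophages were grown from the bone marrow of BalbC mice with human CSF-1, a growth factor that drives precursors into macrophages. They were taken without LPS (0 h) or after 0.5, 2, 7 or 21 h with LPS of S. minnesota at 10 ug/ml, with 1 array per time. On each array the reference was RNA of whole C57BL6/J embryos of 17.5 days. No array of cells kept without LPS for 0.5 to 21 h was analysed here, so LPS and time in culture cannot be told apart. The labels do not say how many animals or cultures stand behind an array, and no array was repeated.

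Values are the deposited log ratios in units of the table, with each array centred on its median. The base of the logarithm is unstated, so changes are differences in units and not folds. The direction was taken as likely macrophage over embryo because macrophage markers had medians of 0.11 to 0.72 across the arrays and embryonic markers had medians of -0.70 to -0.47. With the opposite direction, "higher" and "lower" would trade places throughout. Of 20 macrophage markers listed, 9 were measured, and defining ones such as Csf1r, Adgre1, Itgam and Cd14 were not among them. Array medians of other markers ran from -0.03 to 0.21 for 6 lymphocyte genes, from -0.20 to -0.11 for 6 neutrophil genes, from -0.11 to 0.10 for 2 dendritic cell genes, from -0.64 to -0.36 for 11 stromal genes and from -0.32 to -0.10 for 5 genes of mast cells and platelets. The part of such cells in the results was not tested. In RNA of a whole culture, fewer cells of a type and less RNA per cell cannot be told apart.

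With 1 array per time there is no test and no p-value. The only error that can be estimated is that between probes for the same gene. It does not take in variation between arrays, labellings or cultures, and the number of arrays limits the precision. A gene was counted as higher or lower when its change passed 2 times the probe-to-probe SD of that comparison over all genes. Against 0 h, that limit came to 0.512, 0.737, 0.462 and 0.478 units for the arrays of 0.5, 2, 7 and 21 h. The array at 2 h had the widest spread of deposited values, with an SD of 0.55 against 0.32 to 0.43 on the others. All changes from 0 h share the 0 h array. An SD given after ± is over the probes of 1 gene.

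Few translation factors and synthetases moved past that limit in these cells. At 0.5 h, 2 of the 76 genes were past the limit, both lower (2.63%), where 0.426% of all genes were lower and 4.84% higher. At 2 h, 1 member was higher and none lower, beside 5.12% and 0.253% of all genes. At 7 h, 1 member was higher and none lower, beside 3.11% and 3.35% of all genes. At 21 h, 1 member was higher and 2 lower, beside 3.84% and 2.12% of all genes. In either direction the members' share was 2.63%, 1.32%, 1.32% and 3.95% at the 4 times, beside 5.27%, 5.37%, 6.45% and 5.96% of all genes. More of the members had several probes, and among the 40 members with more than 1 probe 1, 0, 0 and 2 were past the limit, beside 2.47%, 3.16%, 2.18% and 2.54% of such genes. The lower share thus did not hold at 0.5 and 21 h once genes of several probes were compared. At 2 and 7 h, 40 members are too few to tell a count of 0 from shares of 3.16% and 2.18%. The genes behind these counts are Eif2s3x and Eif5a at 0.5 h, Eif4enif1 at 2 h, Eif4g2 at 7 h, and Eef1akmt1, Eef2 and Eif5a at 21 h.

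The spread of the members' changes was below that of all genes. At 0.5, 2, 7 and 21 h their SD was 0.18, 0.34, 0.18 and 0.21 units, against 0.29, 0.37, 0.25 and 0.25 over all genes. Averaging over more probes narrows a gene's error, and among genes with more than 1 probe the SDs at those times were 0.13, 0.20, 0.13 and 0.19 for members and 0.19, 0.28, 0.19 and 0.19 for all. The median changes of the 76 members were -0.02, -0.01, 0.08 and 0.02, where the medians of all genes lay between 0.00 and 0.03. At 7 h, 50 of 76 members lay above 0 (65.8%), beside 51.1% of all genes, and at 0.5 h 34 did (44.7%), beside 53.1%. Without centring, 34 of 76 members lay above 0 at 7 h (44.7%), beside 33.6% of all genes, so the members' share was still the higher. From the lowest to the highest array, a member moved by a median of 0.30 units, beside 0.32 for all genes. With more than 1 probe, the order was reversed, at 0.27 for members and 0.26 for all. Eif3j1, a loosely bound subunit of eIF3, moved least, by 0.0877 units, and Eif4enif1 moved most, by 1.95.

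**Figure D1:**
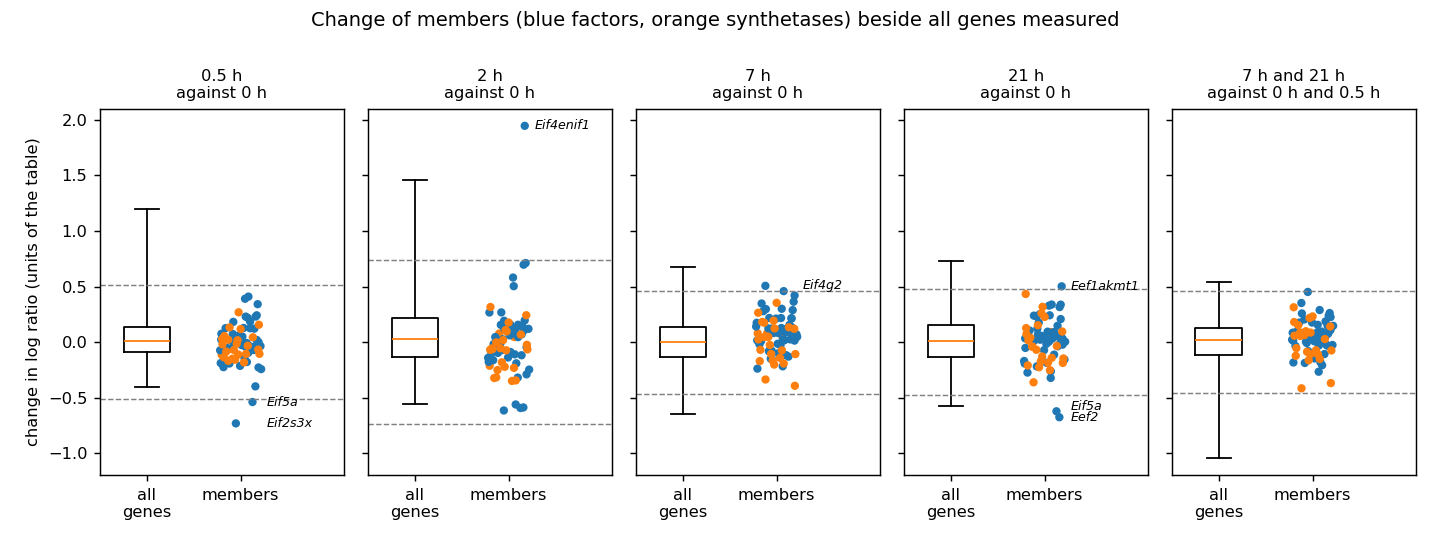
Change in centred log ratio (units of the table) of each of the 76 members (points; blue, factors; orange, synthetases) beside all 8692 genes (box, quartiles and median; whiskers, 1st and 99th percentiles) in 5 comparisons. Dashed lines mark 2 probe-to-probe SDs. Most points lie inside the lines, and the genes past them are named.

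**Figure D2:**
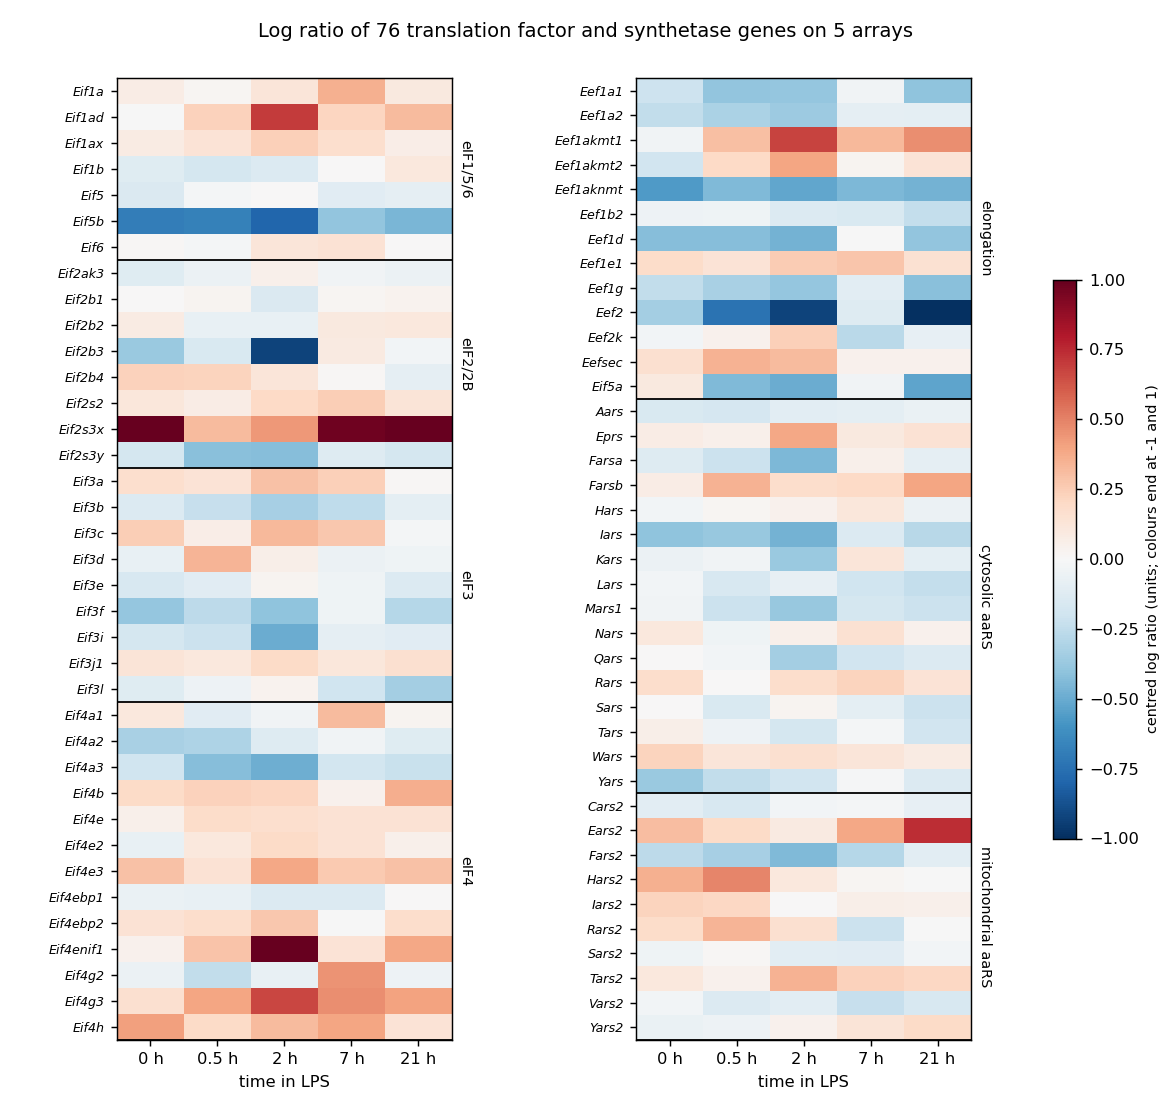
Centred log ratio (colour, units of the table) of the 76 members (rows, ordered by class) on the 5 arrays (columns, hours of LPS). From its lowest to its highest array a row moves by a median of 0.30 units, beside 0.32 for all genes. Eif2s3x is at the high end of the scale at 0, 7 and 21 h, and Eif4enif1 at 2 h alone, where it reached 1.99.

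Relative to the embryo, the members sat near the middle of the array before LPS. Their median log ratio at 0 h was -0.03, with 35 above 0 and 41 below. The elongation factors and their modifiers had a median of -0.19, eIF3 subunits -0.12, the eIF4 group 0.05 and the eIF2 group 0.04. Highest at 0 h were Eif2s3x at 1.05, Eif4h at 0.41, Hars2 at 0.35, Ears2 at 0.31 and Eif4e3 at 0.29. Lowest were Eif5b at -0.69, Eef1aknmt at -0.57, Eef1d at -0.43, Iars at -0.41 and Eif3f at -0.39. A log ratio against the embryo is no amount of RNA, so these orders say nothing about which factor was most abundant.

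Of the factors that choose the start codon and join the ribosomal subunits, none passed the limit at any time in the centred values. All 7 members of this group (Eif1a, Eif1ad, Eif1ax, Eif1b, Eif5, Eif5b and Eif6) lay above 0 at 7 h, by 0.03 to 0.30 units with a median of 0.13, where 51.1% of all genes lay above 0. Eif1ax, Eif5 and Eif6 each had 1 probe below 0 at that time. The 7 stayed above 0 under quantile normalization, cyclic loess and removal of a running median, and 5 did without centring. Eif5b, the GTPase that joins the large subunit to the small one, had log ratios of -0.69, -0.67, -0.79, -0.40 and -0.45 at 0, 0.5, 2, 7 and 21 h. It was the lowest member of all at 0 h, and its 7 h and 21 h values lay above the 3 earlier ones. Eif1b, a close relative of the start-site factor eIF1, had 2 probes that differed little at 21 h, with a change of 0.23 ± 0.0047. The same probes gave -0.24 and 0.22 at 2 h. Eif1a, which works beside eIF1 on the small subunit, changed by 0.28 at 7 h and by 0.02 at 21 h. Eif1ad had its highest value at 2 h, 0.70 against -0.0002 at 0 h, a change that passed the limit without centring (0.75). Eif5, the activator of the eIF2 GTPase, moved by 0.03 at 7 h, and Eif6, which keeps the ribosomal subunits apart, by 0.13 over 4 probes.

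In the eIF2 group, which brings the initiator tRNA and recharges eIF2 with GTP, the single gene past the limit was Eif2s3x. It encodes the gamma subunit of eIF2 from the X chromosome, and its log ratios were 1.05, 0.32, 0.44, 0.97 and 1.30 at 0, 0.5, 2, 7 and 21 h. It was thus low at 0.5 and 2 h and high on the other 3 arrays, with changes of -0.73, -0.61, -0.08 and 0.25 at the 4 times with LPS. Quantile normalization gave -1.18 at 0.5 h and -1.22 at 2 h, and at 2 h cyclic loess gave -1.39 and removal of a running median -0.97, each of which passed the limit of its scaling. Eif2s3y, its near-identical copy on the Y chromosome, had -0.18, -0.42, -0.43, -0.13 and -0.17. Its lowest values also stood at 0.5 and 2 h, but its change of -0.24 at 0.5 h lay inside the limit. Each has 1 probe, and a probe for either copy may also bind RNA of the other.

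The exchange factor eIF2B, whose activity sets how much eIF2 can work, had subunits on both sides. Eif2b3 had log ratios of -0.37, -0.15, -0.93, 0.09 and -0.03, which put it lowest at 2 h and highest at 7 h. Its change of 0.46 at 7 h lay just inside the limit but past it under cyclic loess (0.46, limit 0.461) and with a running median removed (0.48), and at 2 h it was -0.56. Eif2b4 went the other way, with 0.23, 0.23, 0.12, 0.02 and -0.09 and a change of -0.32 at 21 h. Eif2b1 and Eif2b2 changed by 0.02 and 0.01 at 7 h. Eif2s2, the beta subunit of eIF2, changed by 0.13 at 7 h, but 1 of its 5 probes gave 0.84 and the other 4 gave -0.24 to 0.05. Eif2ak3, the kinase PERK that senses stress in the endoplasmic reticulum, changed by 0.06 to 0.17 over the 4 times.

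None of the 9 measured subunits of eIF3, the scaffold that holds the small subunit and the mRNA together, passed the limit at any time. Their medians were -0.03, 0.08, 0.02 and 0.03 units at 0.5, 2, 7 and 21 h. Eif3f had the greatest change at 7 h, 0.35, with log ratios of -0.39, -0.26, -0.41, -0.04 and -0.28. Eif3d, which can itself bind the cap of some mRNAs, had 0.34 at 0.5 h and -0.07 to 0.06 on the other arrays. Eif3c, a core subunit, was lowest at 21 h, and its 2 probes gave a change of -0.26 ± 0.0035. The same probes differed in sign at 2 h, at -0.14 and 0.29, and at 7 h, at -0.07 and 0.11. Eif3l changed by -0.22 at 21 h, and Eif3e by 0.02.

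In the eIF4 group, which binds the cap and unwinds the mRNA, 2 of 13 genes passed the limit, each on 1 array. Eif4enif1 (4E-T), which carries eIF4E into the nucleus and holds mRNAs in a repressed state, had log ratios of 0.05, 0.29, 1.99, 0.14 and 0.38. Its 2 h value stood far above the others, a change of 1.95 units from 1 probe, and 1.26 under quantile normalization. Eif4g2 (DAP5), a relative of the eIF4G scaffold that lacks the binding site for eIF4E, had -0.06, -0.25, -0.08, 0.45 and -0.05. Only its 7 h value was high, a change of 0.51 from 1 probe, and at 21 h the change was 0.01. Without centring the 7 h change was 0.42, inside the limit. Eif4g3, the second eIF4G scaffold, had 0.16, 0.39, 0.67, 0.46 and 0.40, so that all 4 arrays with LPS lay above 0 h, with a change of 0.50 at 2 h that lay inside the limit.

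The helicase eIF4A has 2 similar forms here. Eif4a1 had 0.10, -0.11, -0.03, 0.32 and 0.03, highest at 7 h, where all 5 of its probes lay above 0 h (0.21 ± 0.22). Eif4a2 had -0.33, -0.31, -0.13, -0.04 and -0.12, with the 3 later arrays above the 2 early ones and a change of 0.29 at 7 h. Their sequences are alike, so probes may take RNA of both. The cap-binding protein Eif4e changed by 0.09 to 0.13 over the 4 times. Its 3 probes did not move together at 0.5 h, where 1 gave 0.82 and the others -0.22. Eif4ebp1, the repressor that binds eIF4E when mTORC1 is inactive, changed by -0.07 to 0.07 over 4 probes.

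Of the members past the limit, those with more than 1 probe, Eef2 and Eif5a, both act in elongation. Eef2, the factor that moves the ribosome one codon along, had log ratios of -0.34, -0.74, -0.93, -0.13 and -1.02 at 0, 0.5, 2, 7 and 21 h. It was low at 0.5, 2 and 21 h and high at 0 and 7 h, and all 3 of its probes had that order. Its change at 21 h was -0.68 ± 0.34, with the 3 probes at -0.38, -0.60 and -1.04. At 0.5 h it was -0.40 ± 0.41, at 2 h -0.59 ± 0.41 and at 7 h 0.22 ± 0.19. Set against 0.5 h in place of 0 h, the change at 21 h was -0.28, inside the limit.

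Eif5a, which helps the ribosome through stretches that stall it and carries the modified lysine hypusine, had log ratios of 0.10, -0.44, -0.50, -0.03 and -0.53. The order was that of Eef2, with 0 and 7 h above the other 3 arrays on both probes. Its changes were -0.54 ± 0.13, -0.59 ± 0.08, -0.13 ± 0.0044 and -0.62 ± 0.07 at 0.5, 2, 7 and 21 h. The call at 0.5 h was lost without centring (-0.48) and under cyclic loess (-0.47). Against 0.5 h, the change at 21 h was -0.08. Both genes kept this order without centring, under quantile normalization, under cyclic loess and with a running median removed.

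**Figure D3:**
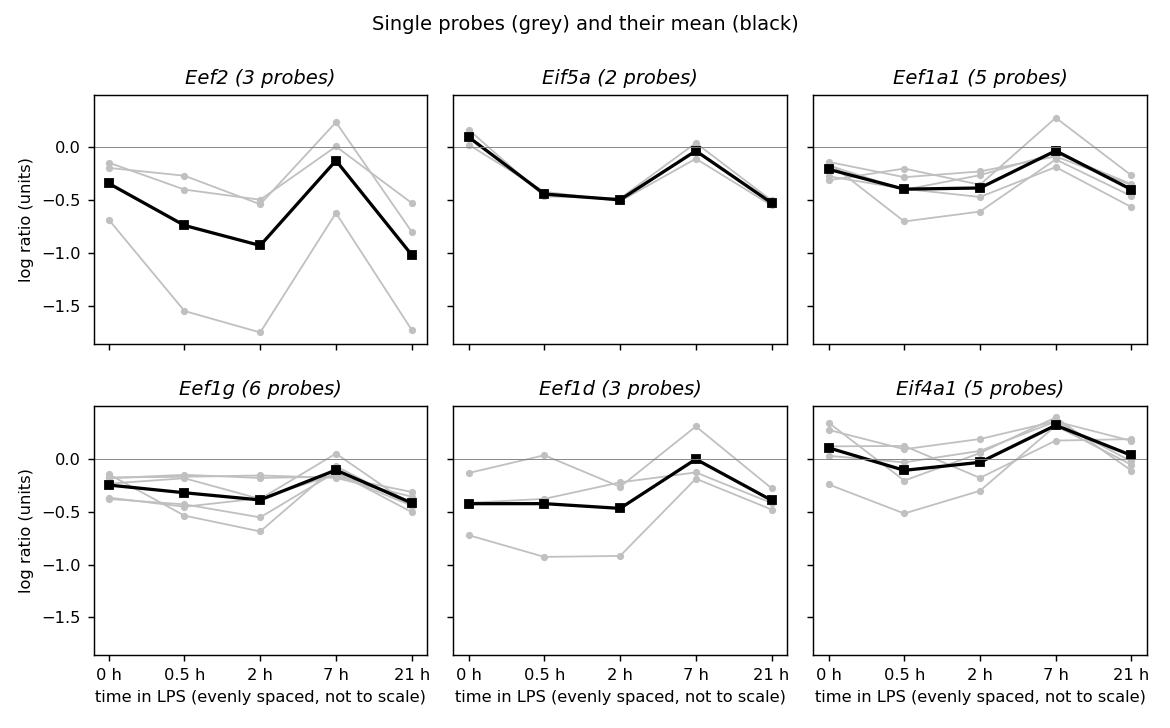
Centred log ratio (units of the table) of every probe (grey) and the probe mean (black) of Eef2, Eif5a, Eef1a1, Eef1g, Eef1d and Eif4a1 at 0, 0.5, 2, 7 and 21 h of LPS, spaced evenly. The probes of Eef2 and Eif5a are lowest at 0.5, 2 and 21 h, and those of Eef1d are highest at 7 h.

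The eEF1 complex brings charged tRNAs to the ribosome, and Eef1a1 and Eef1g had the same order with smaller sizes, in 4 of 5 probes and 3 of 6. Eef1a1, the GTPase itself, had -0.21, -0.40, -0.38, -0.03 and -0.40, and all 5 probes were above 0 h at 7 h (0.17 ± 0.24). Eef1g, a structural subunit, had -0.25, -0.32, -0.39, -0.11 and -0.42, with all 6 probes below 0 h at 21 h (-0.17 ± 0.08). Eef1d, a subunit that exchanges the nucleotide of eEF1A, had -0.43, -0.42, -0.47, -0.0047 and -0.39. Only 7 h stood apart for Eef1d, a change of 0.42 ± 0.12 that all 3 probes shared and that lay just inside the limit, and past it with a running median removed (0.47). Eef1b2, the other exchange subunit, did not have that peak: its changes were -0.10 at 7 h and -0.18 at 21 h. Eef1a2, a near copy of Eef1a1 known from muscle and nerve, changed by 0.16 at 7 h and 0.15 at 21 h, and its probes may take Eef1a1 RNA. Eef1e1, a scaffold of the synthetase complex, changed by 0.09 at 7 h.

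The enzymes that modify elongation factors were measured with 1 probe each. Eef1akmt1, a lysine methyltransferase of eEF1A, had -0.04, 0.30, 0.67, 0.33 and 0.46. All 4 arrays with LPS lay above 0 h, with changes of 0.34, 0.71, 0.36 and 0.50, of which the last passed the limit. That call was lost without centring (0.44), under quantile normalization (0.54, limit 0.556), under cyclic loess (0.40), with a running median removed (0.26) and against 0.5 h (0.16). A second such enzyme, Eef1akmt2, had -0.19, 0.20, 0.39, 0.03 and 0.14, and its changes lay inside the limit. Taken without the demand for a value on all arrays, the change of Eef1akmt1 at 21 h was 0.25. Eef2k, the kinase that switches eEF2 off, had -0.03, 0.05, 0.24, -0.27 and -0.08, highest at 2 h and lowest at 7 h. Its changes of 0.27 at 2 h and -0.24 at 7 h lay inside the limit.

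The order in which 0 h and 7 h both lie above 0.5, 2 and 21 h was counted over all genes after the values of Eef2 and Eif5a had been seen. It was found in 11 of 76 members (14.5%) and in 8.76% of all genes, and in 10 of 70 cytosolic ribosomal protein genes (14.3%), whose median difference between those arrays was -0.03, beside -0.02 for all genes. The 11 were Eef1a1, Eef1g, Eef2 and Eif5a in elongation, Eif4a1, Eif4a3 and Eif4h of the eIF4 symbols, and the synthetases Mars1, Nars, Rars and Tars. Eif4a3 is known as a core protein of the exon junction complex. Of the probes, 2 of 5 for Eif4a1 and 1 of 2 for Eif4h had the order, and Eif4h lost it without centring. The opposite order was found in 8 members (10.5%) and 9.76% of all genes. In the mean of 0 and 7 h minus the mean of the other 3 arrays, Eef2 stood at 0.66 and Eif5a at 0.52, past the limit of 0.392, and Eif4enif1 at -0.80. The last rests on the 2 h array, without which it was -0.24 and inside the limit. In all, 2 were higher and 1 lower of 76, beside 0.449% and 5.71% of all genes (6.16% in either direction). With more than 1 probe, 2 of 40 members were past the limit in either direction, beside 2.80% of such genes. Since Eef2 and Eif5a led to the count, it is a description of them and not a result about them.

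RefSeq promoters (GRCm38.p6, from 250 bases before to 50 after the start) could be matched for 59 of the 76 genes. The E-box CACGTG, which reads the same on both strands and is the site of Myc and related factors, was found in 15 of the 59 (25.4%), in 11.4% of the 7001 measured genes with a promoter and in 8.09% of all 27025 genes in the promoter table. Of the 11 genes named above, 8 had a promoter and 5 of these held the E-box, namely Eef2, Eif5a, Eif4a1, Eif4h and Tars. Members without that order also held it, namely Aars, Ears2, Eef1aknmt, Eef2k, Eif1b, Eif3a, Eif3f, Eif4e, Farsb and Iars. Of these, Eif4e had the opposite order. A link between the motif and the order was not tested. The stretches around the E-box of Eef2, Eif5a, Eif4a1 and Eif4h are shown because these genes had that order in the centred values, with the E-box in capitals. They lie at chr10:81176511-81176630 on the plus strand for Eef2, and on the minus strand at chr11:69921398-69921517 for Eif5a, chr11:69672550-69672669 for Eif4a1 and chr5:134639443-134639562 for Eif4h.
Eef2: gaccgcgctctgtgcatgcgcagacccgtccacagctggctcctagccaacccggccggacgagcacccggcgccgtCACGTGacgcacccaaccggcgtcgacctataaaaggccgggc
Eif5a: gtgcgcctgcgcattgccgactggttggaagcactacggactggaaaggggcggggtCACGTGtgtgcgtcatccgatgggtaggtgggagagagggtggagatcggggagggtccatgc
Eif4a1: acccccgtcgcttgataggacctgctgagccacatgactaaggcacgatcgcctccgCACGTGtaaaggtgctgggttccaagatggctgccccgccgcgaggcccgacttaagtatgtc
Eif4h: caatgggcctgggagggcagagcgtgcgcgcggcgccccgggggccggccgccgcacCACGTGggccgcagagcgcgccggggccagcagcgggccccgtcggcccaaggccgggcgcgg
The E-box begins at base -43 from the start in Eef2, -74 in Eif5a, -189 in Eif4a1 and -96 in Eif4h. A match is a description of letters, and binding of any factor was not measured.

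The cytosolic synthetases charge tRNAs for the bulk of protein synthesis, and none of the 16 measured passed the limit at any time. Their medians were -0.06, -0.06, 0.05 and -0.04 units at 0.5, 2, 7 and 21 h. Yars, for tyrosine, had log ratios of -0.37, -0.25, -0.19, -0.01 and -0.14, with every array with LPS above 0 h and a change of 0.35 at 7 h from 1 probe. Iars, for isoleucine, had -0.41, -0.38, -0.47, -0.14 and -0.28, highest at 7 h with a change of 0.27 over 2 probes. Eprs, which charges both glutamate and proline, had 0.07, 0.05, 0.39, 0.10 and 0.14. Only 2 h was high for Eprs, and all 3 probes were above 0 h there (0.32 ± 0.16).

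Several cytosolic synthetases were lowest at 2 h, on the array with the widest spread. At that time Mars1 changed by -0.35, Qars by -0.34, Farsa by -0.32 and Kars by -0.32, all inside the limit of 0.737. By 7 h Farsa and Kars were above 0 h, by 0.18 each, while Mars1 and Qars stayed below it. Sars, for serine, had 4 probes that all lay below 0 h at 21 h (-0.22 ± 0.01), while at 2 h they ran from -0.41 to 0.53. Wars, the tryptophan enzyme that interferons are known to induce, had 0.23, 0.12, 0.16, 0.12 and 0.08. Its 2 probes moved in opposite directions at 2 h, by -0.48 and 0.35. Nars and Aars changed by 0.05 each at 7 h.

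Synthetase genes are known targets of ATF4, the transcription factor of the integrated stress response, through the C/EBP-ATF response element TGATGNAA. On either strand that motif was found in 4 of 11 cytosolic synthetase promoters (36.4%), in 2.96% of measured genes with a promoter and in 4.51% of all genes in the table. Of the 4 synthetase promoters, 3 are shown as 30 bases around the motif, because control by ATF4 is a known feature of this class. Capitals mark the motif, which runs as TTGCATCA where it lies on the opposite strand.
Iars: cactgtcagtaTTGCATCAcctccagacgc
Tars: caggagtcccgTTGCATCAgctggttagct
Yars: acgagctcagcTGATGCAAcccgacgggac
They lie at chr13:49682126-49682155 (plus strand) for Iars, chr15:11399655-11399684 (minus) for Tars and chr4:129189895-129189924 (plus) for Yars. At 7 h Iars, Tars and Yars changed by 0.27, -0.07 and 0.35 units. The 2 probes of Tars gave -0.29 and 0.14 at that time, so its direction is not settled. Aars, whose promoter is the other of the 4, changed by 0.05 at 7 h from 1 probe. Control of these genes by ATF4 was not tested. The motif was also found in the promoters of Eef2k and Eif2s3x, and in none of the 9 mitochondrial synthetase promoters. The cAMP response element TGACGTCA, which reads the same on both strands, was found in Eef2 alone, or 1.69% of the 59 members with a promoter, beside 3.49% of measured genes and 2.03% of all genes in the table.

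The mitochondrial synthetases, which serve the translation of the few proteins encoded in mitochondrial DNA, had no gene past the limit at any time among the 10 measured in the centred values. Hars2, for histidine, had log ratios of 0.35, 0.49, 0.10, 0.02 and -0.01, with the 3 later arrays below the 2 early ones. Rars2, for arginine, had 0.18, 0.34, 0.16, -0.21 and -0.01, and its change of -0.39 at 7 h was -0.48 without centring, past the limit. Ears2, for glutamate, went the other way with 0.31, 0.19, 0.09, 0.39 and 0.74, and its 21 h value was the highest. That change was 0.43, inside the limit, and 0.62 with a running median removed, past it. Yars2, for tyrosine, had -0.06, -0.05, 0.04, 0.13 and 0.20. Each of these 4 has 1 probe.

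Late against early, no member passed the limit in the centred values. The mean of 7 and 21 h minus the mean of 0 and 0.5 h had a limit of 0.457 units, past which 1.94% of all genes were higher and 6.10% lower (8.04% in either direction), beside 0 of 76 members. Among genes with more than 1 probe the share in either direction was 3.49%, beside 0 of 40 members. A count of 0 in 40 is close to that share. The largest increases were Eif2s3x at 0.45, Eif4g2 at 0.35, Ears2 at 0.31, Eif2b3 at 0.29, Eef1akmt1 at 0.26, Eif5b at 0.26, Eif4a2 at 0.24 and Yars at 0.23. The largest decreases were Hars2 at -0.41, Rars2 at -0.37, Eif2b4 at -0.27, Eefsec at -0.21, Eif3l at -0.19, Eif3d at -0.18, Eef2k at -0.18 and Iars2 at -0.16. Iars2 alone of these 16 turned in sign under another scaling, to 0.13 with a running median removed. Some of these changes rest largely on 1 array or 1 probe. Eif2s3x had 1.05, 0.32, 0.97 and 1.30 at 0, 0.5, 7 and 21 h. Eif3d had -0.07, 0.34, -0.06 and -0.04 at those times, so both late values lay above 0 h. The 3 probes of Eif3l gave -0.47, -0.09 and 0.0003. Under other scalings 4 members passed the limit, namely Eif2s3x at 0.74 with quantile normalization, Ears2 at 0.60 with a running median removed, and Hars2 at -0.52 and Rars2 at -0.47 without centring. The shares of all genes past the limit under those scalings are not given here. Eefsec is the factor that delivers selenocysteine. Both late arrays lay above both early ones in 24 members (31.6%), beside 28.7% of all genes, and below them in 12 (15.8%), beside 26.3%.

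By role, the median late change was 0.15 for the start-site and subunit-joining group, 0.09 for the eIF2 group, 0.01 for eIF3, 0.08 for the eIF4 group, 0.04 for elongation, 0.06 for cytosolic and 0.01 for mitochondrial synthetases. Over all genes it was 0.02. Without centring the median of all genes shifted by -0.10. Then 22 of 76 members lay above 0 in place of 51, beside 30.4% of all genes in place of 54.1%. The members' median was then -0.04 against -0.09 for all genes, but their share above 0 was slightly below that of all genes. Of the mitochondrial synthetases, 4 of 10 had both late arrays below both early ones (Hars2, Rars2, Iars2 and Vars2) and 4 had them above.

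**Figure D4:**
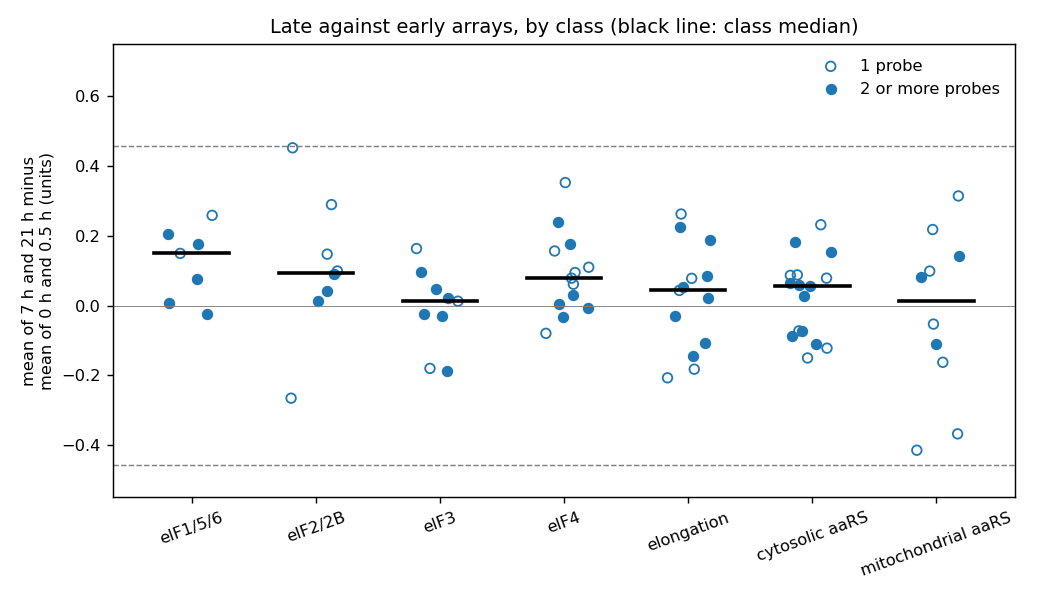
Late minus early change (mean of 7 and 21 h minus mean of 0 and 0.5 h, units of the table) of each member by class (open points, 1 probe; filled, more), with the class median (black line). Dashed lines mark 2 probe-to-probe SDs (0.457 units), and all 76 points lie between them, from Hars2 at -0.41 to Eif2s3x at 0.45.

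Genes of related pathways mostly lay inside the limit as well. Of 14 measured genes of the ATF4 and integrated stress response list (26 listed), 1 was higher and 1 lower past the limit at 7 h. Of all genes, 3.11% were higher and 3.35% lower at that time. Chac1, which degrades glutathione, changed by 0.54, and Cebpg, a partner of ATF4, by -0.66, from 1 probe each. Atf4 itself changed by 0.13 and Asns, the asparagine synthetase it controls, by 0.25. At 2 h, Mtif3 of the mitochondrial initiation step changed by 0.82 from 1 probe (1 of 6 measured genes of its list). Sesn1, an inhibitor of mTORC1, changed by -0.84 over 2 probes (1 of 9). Of all genes, 5.12% were higher and 0.253% lower at 2 h. In the 4 comparisons with 0 h, none of 6 termination and rescue genes, 4 poly(A)-binding proteins and partners, 6 kinases and phosphatases of translation control, or 2 scaffold genes of the synthetase complex passed the limit. Tufm, the mitochondrial counterpart of eEF1A, changed by 0.21 at 7 h, and Aimp1, a scaffold of the synthetase complex, by -0.05.

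Probes of the same gene put a bound on what can be read from these values. Among the 25 members with exactly 2 probes, both had the same sign in 14, 14, 15 and 13 at 0.5, 2, 7 and 21 h, and over all genes with 2 probes the share was 50.5%, 51.6%, 53.6% and 54.8%. Of the 7 changes from 0 h past the limit, the 3 of Eef2 and Eif5a had more than 1 probe, and all their probes shared the sign. These changes were picked by the mean of those same probes, so the shared sign is no separate support. The other 4 rest on 1 probe each. Among genes with more than 1 probe, 0.264% were lower at 0.5 h and 0.461% at 21 h.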

How the data were processed

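Macrophage RNA of 5 times was compared with whole-embryo RNA on 2-colour arrays, 1 per time, with amino-allyl labelling per the labels, in which Cy3 is the only dye named. The values deposited by the authors are signed log ratios of single probes, with 207 to 681 of them empty on an array (a unit of other kind, as base and direction are unstated). How background, normalization and filters were handled is not given in the sources. Deposited medians were 0.07, 0.13, 0.12, -0.01 and 0.01 in order of time, and correlations between arrays ran from 0.44 to 0.84. Dim spots stayed in, as no background signal was used.

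Of 19828 probes, 14759 had 1 gene in the platform annotation, 170 several and 4899 none. Each array was centred on its median over the 18391 probes present on all 5. The 13876 of these with 1 gene were averaged by gene, giving 8692 genes, 3034 with more than 1 probe. All 76 member gene IDs were found in the RefSeq gene table, which changed 0 symbols. Farsa and Farsb were counted as synthetases. The probe-to-probe SD was pooled over genes with more than 1 probe, from probes about their gene's mean.

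Named were, per comparison, members with the largest changes (up to 8 each way), every member past 2 SDs, the 5 highest and 5 lowest at 0 h, up to 3 per class by late change, and a list of well-known factors and synthetases; of other lists, up to 3 genes each. Members, classes and lists were chosen with earlier results of these data known. Calculations used Python 3.11.15, pandas 2.3.3 and numpy 2.4.6, and R 4.3.3 with limma 3.58.1 for the quantile and cyclic loess alternatives, and were tested on simulated data. One promoter sequence is not reported here.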

Additional observations from a re-analysis of the deposited data

How the results depend on the processing

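The number of member genes past the limit is a small number in every comparison, so single genes decide it. Against 0 h it was 0 higher and 2 lower at 0.5 h, 1 and 0 at 2 h, 1 and 0 at 7 h, and 1 and 2 at 21 h. It was 0 and 0 late against early, and 2 and 1 in the comparison of 0 and 7 h with the other arrays, which was chosen after seeing the data. Without centring there was 1 lower at 0.5 h, 3 higher at 2 h, 0 higher and 1 lower at 7 h, 0 higher at 21 h, 2 lower late against early and 2 lower in the last comparison. Quantile normalization gave 1 lower at 2 h, 0 higher at 21 h, 1 higher late and 5 higher in the last. Cyclic loess gave 1 lower at 0.5 h, 1 lower at 2 h, 2 higher at 7 h and 0 higher at 21 h. Removing a running median gave 2 lower at 2 h, 3 higher at 7 h and 1 higher late. With 1 unit as the limit there were 0 lower at 0.5 h, 0 higher at 7 h, 0 either way at 21 h and 0 in the last. With 3 SDs there were 0 lower at 0.5 h, 0 higher at 7 h, 0 either way at 21 h and 1 higher in the last. Genes with more than 1 probe gave 1 lower at 0.5 h, 0 higher at 2, 7 and 21 h and 0 lower in the last. Without the lowest 10% of mean log ratios there was 1 lower at 0.5 h, 0 lower at 21 h and 0 higher in the last. With probes present only on the arrays compared, 0 were higher at 21 h. The 26 synthetases alone gave 0 in each comparison. With 0.5 h as baseline there was 1 lower at 2 h, 2 higher at 7 h and 0 lower at 21 h, and with the mean of 0 and 0.5 h 1 lower at 2 h, and 2 higher and 0 lower at 21 h. Leaving out the 2 h array gave 0 lower in the last comparison. Beyond fewer genes or a wider limit, the cause of these differences was not tested. The shares of all genes past the limit given above are for the centred values. Such shares under the other settings are not given here, so these counts describe single genes and not the members as a set.

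The median change of the members stayed within 1 SD of the reported value under every alternative run, a wide bound for a median of many genes. It ran from -0.05 to 0.04 at 0.5 h, -0.06 to 0.05 at 2 h and -0.01 to 0.09 at 7 h. At 21 h it ran from -0.04 to 0.03, and late against early from -0.04 to 0.06. Each of these ranges takes in both signs, so the sign of the median depended on the processing. At 7 h the lowest median, -0.01, was that without centring, where all genes had -0.08. The members' medians at 7 h were 0.08, 0.06, 0.05 and 0.05 centred, quantile normalized, under cyclic loess and with a running median removed. In the same order, all genes had 0.00, -0.01, -0.01 and 0.01. No called gene turned in sign. No paired analysis was possible because each time has 1 array. With 1 array a time, the spread between cultures is unknown, and dim spots could not be told from bright ones.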
